A study of Physcomitrium patens with 12 samples.

Results

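Mature antheridia and mature archegonia of wild type Physcomitrium patens, a moss, were compared through the 6 wild type libraries among the 12 of the series. They were chosen by the genotype and organ in their labels, 3 for each organ. Each library was made from 8 organs of the strain Gransden, picked on day 18 of sporophyte induction, so that values average over the organs of a pool. No treatment separates the wild type groups. The other 6 libraries came from the PpPINC mutant line pinC#29, a single line, in the same organs. Organs were gathered on 3 occasions that the labels do not tie to libraries, so collection occasion could not be entered in a test. The titles call the libraries biological replicates without naming separate cultures, so a p-value here reflects how these libraries vary, which may be technical.

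Antheridia are the male organs of a moss, a sterile jacket around cells that become swimming, flagellated sperm. Archegonia are the female organs, with a neck that opens to let sperm through and a single egg at the base. Physcomitrium patens carries both on the same haploid plant, so the organs share one genome and differ in which genes are used. The strain Gransden is known for reduced male fertility, which limits its antheridia as a model of the male organ. In RNA of whole organs, fewer cells of a type and less RNA per cell cannot be told apart.

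The count table lists 32926 genes by identifiers such as Pp3c2_3446, in which the number after the c is that of the chromosome in the naming scheme. None of these identifiers matched the 27567 entries of the RefSeq gene table of assembly ASM5946719v1 used here. Genes are therefore named by identifier, without a function, and the labelled organ could not be checked against marker genes of sperm or egg. Levels are CPM, counts scaled to the library total, and are not divided by gene length. An order of genes by CPM is thus an order by share of reads, not by transcript number.

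Total counts ran from 20700921 to 30264450 per library, and a floor of 3 counts, the most that a count of 0 allows, lay between 0.0963 and 0.143 CPM. Such floors hold for counting error alone, because PCR copies of 1 molecule are counted separately. The first principal component held 55% of the variance and separated the organs. On it the antheridia stood at -129, -89.3 and -137 and the archegonia at 148, 142 and 64.8, so that archegonia 3 was the archegonium library nearest to the antheridia. Antheridia 1 stood apart along the second component, with 21.6% of the variance, at 149.8 against -94.4 to 13.1 for the others. Across genes, which are not independent replicates, archegonia 1 and 2 had a Spearman correlation of 0.962. Archegonia 3 reached 0.931 and 0.917 with them, antheridia 0.869 to 0.914 with each other, and libraries of different organs 0.746 to 0.840. Counts of called genes, of genes whose libraries did not overlap and of genes absent from one organ are given below with and without single libraries.

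More genes were called higher in antheridia than in archegonia, and the called differences were larger on the male side. Of 21669 genes with enough counts to test, 1658 (7.65%) were called, which means a Benjamini-Hochberg adjusted p under 0.05 in edgeR's quasi-likelihood test. Of these, 1204 genes were higher in antheridia, 5.56% of those tested, and 454 were higher in archegonia, or 2.10%. Antheridia thus held 72.6% of the calls. Genes called higher in antheridia had a median log2 difference of 3.52, with a middle range over genes of 2.28 to 5.08. Genes called higher in archegonia had a median size of 1.92, from 1.44 to 3.2. At least 32-fold differences, 5 on the log2 scale, were found in 314 of the antheridium genes (26.1%) and in 59 of the archegonium genes (13%). Over all tested genes the median log2 difference was -0.03.

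The count of calls moved with the test and with single libraries. The DESeq2 Wald test called 3062 genes and limma-voom 1362, of which 67.6% and 70.3% were higher in antheridia. A fit that takes its spread from all 12 libraries called 672, of which 86.8% were higher in antheridia. Without antheridia 1 the count was 1488. It was 1064 without antheridia 2 and 1003 without antheridia 3. It fell to 562 without archegonia 1 and to 653 without archegonia 2, and was 1958 without archegonia 3. The share of calls higher in antheridia lay between 74.3% and 83.8% when single libraries were left out. Antheridia therefore held most of the calls in each of these fits, while the number of genes did not settle. The authors' deposited table called 2987 genes, 2022 higher in antheridia and 965 higher in archegonia. That list held 1191 of the 1204 antheridium genes and 452 of the 454 archegonium genes, which are 58.9% and 46.8% of the authors' calls in each direction. No gene was called in opposite directions.

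**Figure D1:**
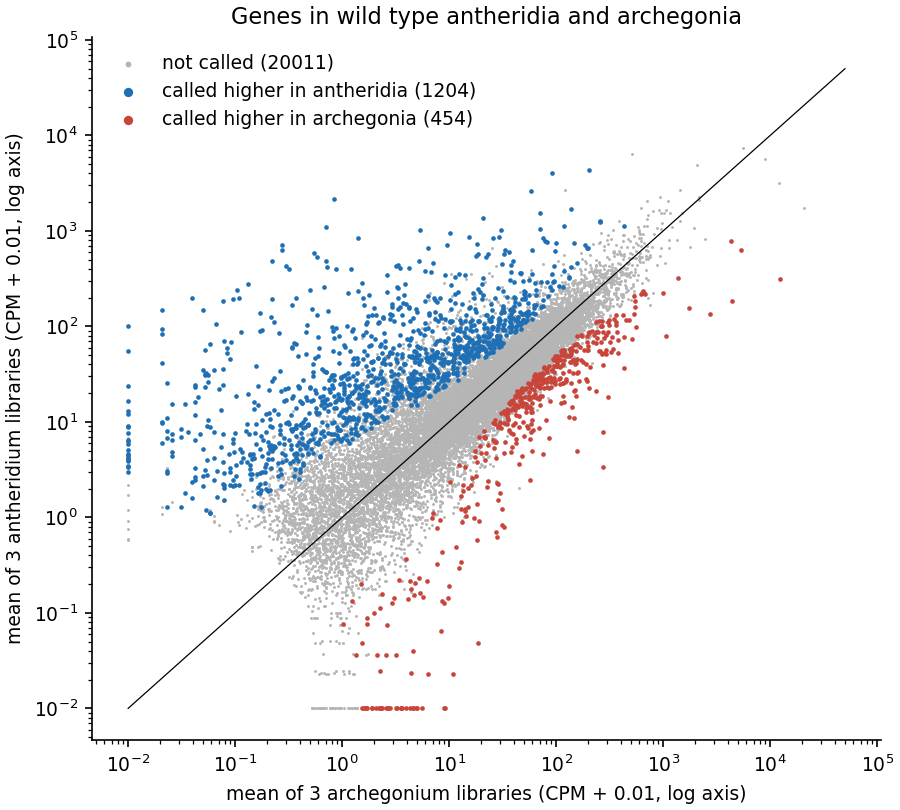
Each point is 1 of the 21669 tested genes, placed by its mean CPM over 3 archegonium libraries (x) and 3 antheridium libraries (y), both on log axes with 0.01 CPM added so that means of 0 can be drawn. The line marks equal levels. The 1204 genes called higher in antheridia reach far above the line at low archegonium levels, and most of the 454 called higher in archegonia lie closer to it.

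The imbalance concerned the size of the differences more than the number of genes that separated the organs. Every antheridium library stood above every archegonium library in 3304 genes, 15.2% of those tested. The reverse held in 3584 genes, or 16.5%. The median log2 size was 1.95 in the first set and 0.99 in the second. Differences of at least 8-fold were found in 984 of the 3304 male-side genes and in 260 of the 3584 female-side genes. At least 32-fold differences numbered 331 and 119, again with sizes set by the fit where an organ had no count. With single libraries left out, which lets more genes separate, the male-side median lay between 1.42 and 1.97 and the female-side median between 0.88 and 1.08. Differences of at least 8-fold numbered 872 to 1495 on the male side and 258 to 637 on the female side. The 32-fold counts rested on single libraries, being 840 and 119 without archegonia 3, 343 and 394 without antheridia 2, where the order turned, and 357 and 151 without antheridia 1. An unadjusted p under 0.05 was reached by 2945 genes higher in antheridia and 2313 higher in archegonia, closer numbers than those of the calls.

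**Figure D2:**
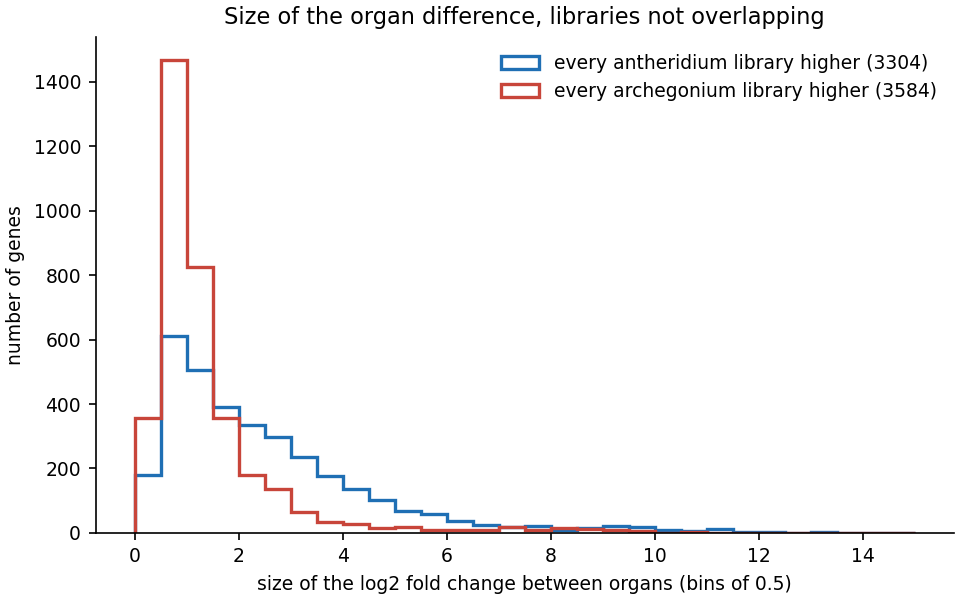
Number of genes (y) by the absolute log2 fold change between organs (x, bins of 0.5), for the 3304 genes in which all 3 antheridium libraries were above all 3 archegonium libraries and the 3584 genes with the reverse order. The female-side genes pile up below 2, with a median of 0.99, while the male-side genes extend further, with a median of 1.95.

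The antheridium genes were also more often very low in the other organ. Of the 1204 genes called higher in antheridia, 419 (34.8%) averaged under 1 CPM in archegonia, and 347 averaged at least 10 CPM there. Of the 454 genes called higher in archegonia, 84 (18.5%) averaged under 1 CPM in antheridia, while 289 averaged at least 10 CPM. Most genes of the female set were thus present in both organs at different levels. In their own organ the medians were 37.2 CPM for the antheridium genes and 61.4 CPM for the archegonium genes. Of the antheridium genes 290 averaged at least 100 CPM in antheridia and 15 at least 1000 CPM. Of the archegonium genes 152 averaged at least 100 CPM in archegonia and 8 at least 1000 CPM.

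Genes with reads in one organ and no count in the other were few on both sides. At 1 CPM or more in every antheridium library and no count in any archegonium library there were 22 genes, of 18194 at that level in antheridia. In the opposite direction there were 32, of 18235. At 10 CPM or more in every library these numbers were 3 and 0, and the highest mean was 96.6 CPM for an antheridium gene. After all libraries had been thinned to 20700921 counts, the numbers at 1 CPM were 26 and 32. Leaving out a library can only keep or raise these counts, so a rise was fixed in advance and only its size differed between libraries. Without archegonia 3 the antheridium side rose to 108 genes, and it was 42 without archegonia 1, 36 without archegonia 2 and 35 without antheridia 1. Without antheridia 2 the archegonium side rose to 110 genes, and without antheridia 3 to 50. Archegonia 3 and antheridia 2 moved these counts the most.

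The share of genes called was lowest in the genes with the fewest reads. Among 1225 tested genes averaging under 1 CPM over the 6 libraries, 1.06% were called on the male side and 1.14% on the female side. Among 2002 genes averaging 100 to 1000 CPM, 7.14% were called on the male side and 4.35% on the female side. Among 12969 genes of 10 to 100 CPM the shares were 5.20% and 2.05%, and among 5434 genes of 1 to 10 CPM they were 6.79% and 1.51%. Of the 39 genes averaging 1000 CPM or more, 4 belonged to the called antheridium genes and 5 to the archegonium genes. Together the 1204 antheridium genes took 12.2%, 10.2% and 13.9% of the counts of antheridia 1, 2 and 3, against 1.33%, 1.46% and 1.71% in archegonia 1, 2 and 3. The 454 archegonium genes took 9.71%, 6.48% and 7.81% of the counts in archegonia and 1.80%, 1.46% and 1.37% in antheridia. These shares describe genes chosen by the same contrast and are no test of it.

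Some genes could be placed as close to even. In 3759 genes (17.3%) the whole 95% interval of the log2 difference lay between -1 and 1, so that a difference of 2-fold or more was outside it. Their median level was 47.6 CPM. Among the 2041 genes at 100 CPM or more, 582 (28.5%) met this condition and 239 were called. For the other genes the missing call does not show equal levels. The median half-width of the interval was 0.99 on the log2 scale over all tested genes and 0.77 at 100 CPM or more.

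In these libraries the leading 1 and 10 genes took a larger share of reads in archegonia than in antheridia. The leading gene of each library took 0.738%, 0.879% and 1.10% of the counts in antheridia 1, 2 and 3 and 3.11%, 2.09% and 2.01% in archegonia 1, 2 and 3. In archegonia 3 this was Pp3c13_6860, which also led antheridia 3 and was not called between organs (log2 difference -0.65, edgeR adjusted p = 0.731). The 10 leading genes took 4.42%, 4.31% and 5.22% in antheridia and 8.88%, 6.74% and 9.05% in archegonia. Both measures separated the organs without overlap, with an exact two-sided permutation p of 0.1, the smallest that 3 against 3 libraries can give. The 100 leading genes took 14.8% ± 1.5 in antheridia and 16.7% ± 1.40 in archegonia (SD, n = 3; exact two-sided permutation p = 0.2), and here the organs overlapped. The 1000 leading genes took 39.3% ± 2.27 and 39.4% ± 1.14 (SD, n = 3; exact permutation p = 1). Among these 4 numbers of leading genes, the organs were apart without overlap at 1 and 10 only.

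**Figure D3:**
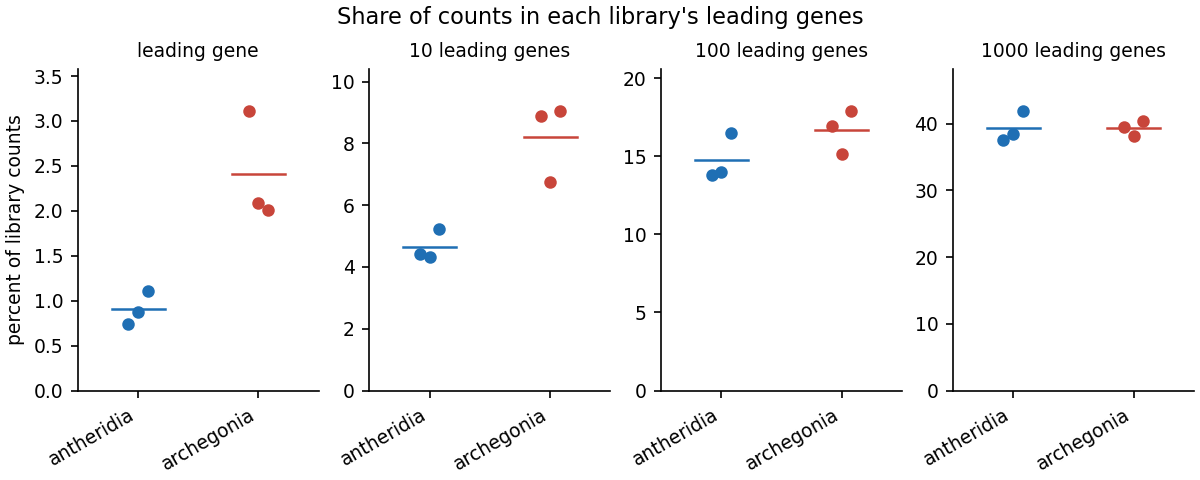
Percent of each library's counts (y) in its own leading 1, 10, 100 and 1000 genes, with 1 point per library and a line at the mean of the 3 libraries of an organ. Each panel has its own y axis starting at 0. Archegonium libraries lie above antheridium libraries for the leading gene (2.01% to 3.11% against 0.738% to 1.10%) and overlap them for the 100 and 1000 leading genes.

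The genes that led the organs were partly shared. Of the 100 genes with the highest mean CPM in antheridia, 50 were among the 100 highest in archegonia, and of the leading 1000, 631 were shared. Single libraries of different organs shared 27 to 48 of their leading 100 genes, with a median of 38 over 9 pairs. Libraries of the same organ shared 50 to 60 in antheridia and 48 to 64 in archegonia, over 3 pairs each. The lowest pair of archegonia thus shared no more than the closest pair of different organs. Among the leading 100 genes of antheridia, 29 were called higher in antheridia, against 5.56% of all tested genes, and 1 was called higher in archegonia. By their means, 25 were more than 8-fold above archegonia. Among the leading 100 of archegonia, 14 were called higher in archegonia, against 2.10% of all tested genes, and 0 were called higher in antheridia. By their means, 7 were more than 8-fold above antheridia. The leading 1000 had 168 and 100 calls toward their own organ, 13 and 8 toward the other, and 135 and 15 differences over 8-fold. Genes chosen by a high mean in an organ tend to be called higher in it, so these counts are no test.

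Genes were named by the highest mean CPM among called genes with separate libraries and at least an 8-fold difference, with 2 for each organ. Pp3c2_3446 was at 6917, 1487 and 4512 CPM in antheridia 1, 2 and 3 and at 142.8, 364.3 and 96.1 CPM in archegonia 1, 2 and 3. The antheridia varied widely among themselves, yet the lowest of them stood above the highest archegonium library. Its log2 difference was 4.42 ± 0.81 (SE; edgeR adjusted p = 0.0159), and the call was lost without archegonia 1 (edgeR adjusted p = 0.0855). Pp3c3_7430 was at 5693, 2817 and 3663 CPM in antheridia and at 124.3, 134.6 and 17.5 CPM in archegonia, with the lowest value in archegonia 3. Its log2 difference was 5.46 ± 0.86 (SE; edgeR adjusted p = 0.00847), and it stayed called in all 15 alternatives.

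On the female side, Pp3c4_4730 was at 20480, 5490 and 11490 CPM in archegonia 1, 2 and 3 and at 686.8, 28.8 and 235.3 CPM in antheridia 1, 2 and 3. It was the second gene of archegonia 1 by reads. Its level in antheridia spanned more than an order of magnitude, with antheridia 1 highest. The log2 difference was -5.30 ± 1.21 (SE; edgeR adjusted p = 0.035). This call was lost in 6 of 15 alternatives, where the adjusted p reached at most 0.127, and these included leaving out antheridia 2 or 3 and archegonia 1 or 2. Pp3c8_1210 was at 5877, 3493 and 6516 CPM in archegonia and at 911.8, 434.9 and 540.9 CPM in antheridia. All 3 archegonium libraries lay close together and well above the antheridia, with a log2 difference of -3.07 ± 0.56 (SE; edgeR adjusted p = 0.0159). The call was lost in 4 of 15 alternatives, those without antheridia 2, antheridia 3 or archegonia 1 and that of all 12 libraries, with an edgeR adjusted p of at most 0.0754.

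Both of the most abundant genes that missed the threshold are named as well, which ranked among the first 3 genes of each archegonium library by reads. Pp3c12_11710 was at 30680, 20320 and 11660 CPM in archegonia 1, 2 and 3 and at 3166, 332.7 and 1710 CPM in antheridia 1, 2 and 3. It was the leading gene of archegonia 1 and 2. The organs did not overlap, but the antheridia differed among themselves by almost an order of magnitude, and the log2 difference of -3.59 ± 0.97 (SE) had an edgeR adjusted p of 0.0621. It was called in 5 of 15 alternatives, among them the DESeq2 Wald test, limma-voom and the fit without archegonia 3. Pp3c20_16210 was at 8573, 11200 and 16550 CPM in archegonia and at 3125, 2730 and 3570 CPM in antheridia. The organs did not overlap here either, with a log2 difference of -1.95 ± 0.60 (SE; edgeR adjusted p = 0.0916), and it was called by the DESeq2 Wald test and limma-voom.

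Other leading genes, chosen after their values were seen, varied within an organ. Pp3c1_32280, the leading gene of antheridia 1, was at 7191, 7257 and 7625 CPM in antheridia and at 3908, 8043 and 4877 CPM in archegonia. Its organs overlapped, with a log2 difference of 0.39 (edgeR adjusted p = 0.717). Pp3c13_6860 led antheridia 3 at 11880 CPM and archegonia 3 at 19950 CPM, and lay between 1827 and 3373 CPM in the other 4 libraries. It was thus high in replicate 3 of both organs. Pp3c16_19400 was at 5422, 5460 and 8161 CPM in antheridia and at 14.1, 6.49 and 1519 CPM in archegonia. Archegonia 3 stood far above the other archegonia in this gene, which had a log2 difference of 3.63 and an edgeR adjusted p of 0.261.

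**Figure D4:**
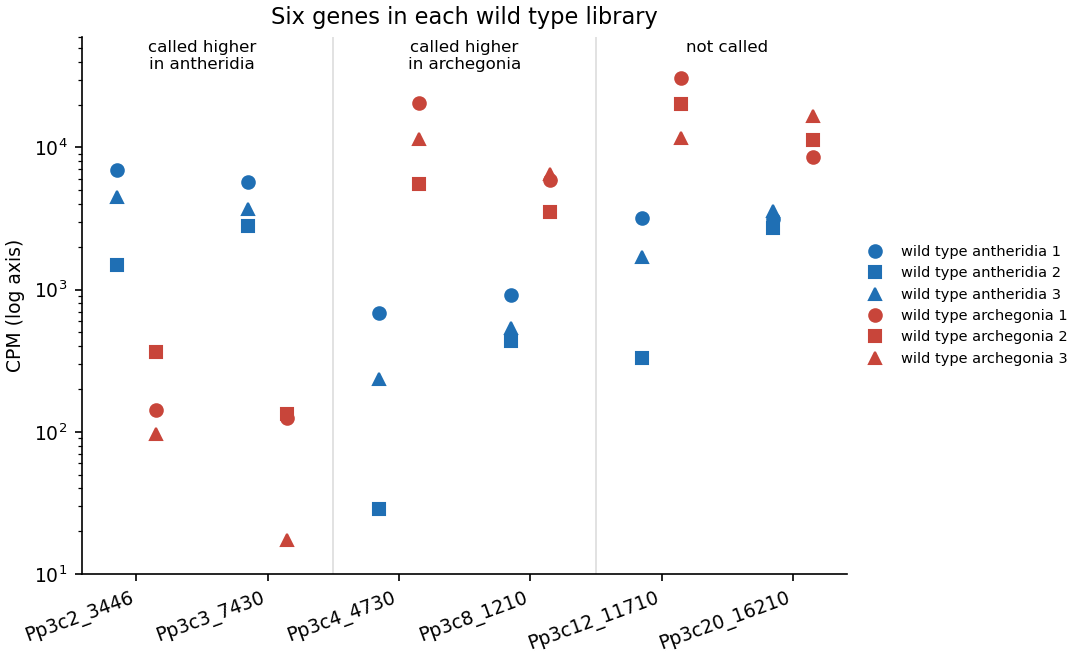
CPM on a log axis (y) of 6 genes (x) in each wild type library, with antheridia in blue, archegonia in red and the replicate number by symbol. For all 6 genes the organs do not overlap. Pp3c4_4730 and Pp3c12_11710 spread widely over the antheridia, from 28.8 to 686.8 and from 332.7 to 3166 CPM.

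The number of detected genes did not separate the organs. Genes with at least 1 count numbered 21654, 24027 and 22421 in antheridia 1, 2 and 3 and 24357, 23991 and 24618 in archegonia. After thinning to equal depth the numbers were 22634 ± 1178 and 24185 ± 399 (SD, n = 3; exact two-sided permutation p = 0.2). Antheridia 2 then had 23932 genes, above the 23729 of archegonia 2. The order turned at a higher threshold, since genes with at least 10 counts after thinning numbered 20962 ± 682 in antheridia and 20729 ± 374 in archegonia (SD, n = 3; exact permutation p = 0.7). Genes at 1 CPM or more numbered 20022 ± 406 and 19364 ± 413 (SD, n = 3; exact permutation p = 0.2).

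Replicates spread more in antheridia than in archegonia for genes of low and middle levels. Over all tested genes the median SD of log2 CPM among 3 libraries was 0.54 in antheridia and 0.38 in archegonia, and 64.9% of genes had the larger SD in antheridia. For genes of 1 to 10 CPM these medians were 0.96 and 0.54, and for 10 to 100 CPM they were 0.46 and 0.32. The order was not seen at 100 to 1000 CPM, with 0.37 in antheridia and 0.39 in archegonia. The test uses 1 spread per gene for both organs.

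The same contrast in the mutant libraries, which share no library with wild type, gave lists of genes that could be read in wild type. In the mutant, 539 of 21116 tested genes were called on the male side (2.55%) and 36 on the female side (0.170%). Of the male list 533 were tested in wild type, and all 533 had the same sign there, with a median log2 difference of 4.17. Of these, 426 (79.9%) were called higher in wild type antheridia, against 5.56% of all tested genes. Of the 36 genes of the female list, all had the same sign in wild type, with a median of -2.96. Of these, 23 (63.9%) were called higher in wild type archegonia, against 2.10% of all tested genes. No gene of either list was called in the opposite direction. Over all tested wild type genes the median log2 difference was -0.03. A gene with almost no reads in an organ is tested only if the other organ holds its reads, so that filter sets its sign. The same-sign shares here and below are limited by this. Conversely, of the 1204 genes called higher in wild type antheridia, 1118 were tested in the mutant and 97.2% had the same sign, with 38.1% called. Of the 454 archegonium genes, 434 were tested there and 93.3% had the same sign, with 5.30% called. A test of the difference in organ effect between wild type and mutant, in one edgeR fit over 12 libraries, called 0 of 22792 genes, with 961 at an unadjusted p under 0.05. The same fit called 672 genes between the wild type organs, against 1658 in the fit of wild type alone. The lack of calls therefore does not show equal organ effects in both genotypes. Of 538 male-list genes tested, 288, 294 and 499 were called higher in antheridia without archegonia 1, 2 and 3. Over all genes in these fits, 471, 485 and 1589 were called so, of 22394, 22364 and 22389 tested. Without antheridia 1, 2 and 3 the list counts were 381 of 538, 346 of 533 and 344 of 533. Over all genes the counts were then 1129 of 22463, 814 of 22131 and 827 of 22237. Of the 36 female-list genes, 15, 14 and 25 were called higher in archegonia without archegonia 1, 2 and 3. Over all genes, 91, 168 and 369 were called so. Without antheridia 1, 2 and 3 the list counts were 24, 15 and 18, and those over all genes 359, 250 and 176. The list counts are to be read beside the calls over all genes, which also moved between these fits.

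The lists also give the level, in each library, of genes that belong to the other organ in the mutant. The 533 genes of the male list had a median level of 43.6, 57.1 and 81.1 CPM in antheridia 1, 2 and 3. In archegonia 1, 2 and 3 the median was 1.43, 1.16 and 4.45 CPM. The antheridia were far above all archegonia, and archegonia 3 was highest among the archegonia. Relative to each gene's median over antheridia, archegonia 1, 2 and 3 stood at a median of 3.02%, 2.10% and 9.39%. Archegonia 3 was the highest archegonium library in 68.7% of the male list, against 36.2% of all tested genes. In archegonia 1, 2 and 3, 55, 57 and 31 of the 533 genes had no count. The 36 genes of the female list had a median of 92.7, 69.1 and 69.3 CPM in archegonia 1, 2 and 3 and of 14.9, 7.79 and 7.70 CPM in antheridia 1, 2 and 3. Antheridia 1 was the highest antheridium library in 63.9% of this list, against 35.2% of all tested genes. Its genes without a count numbered 4, 3 and 4 in antheridia 1, 2 and 3. The part of these transcripts in the organ differences was not tested.

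**Figure D5:**
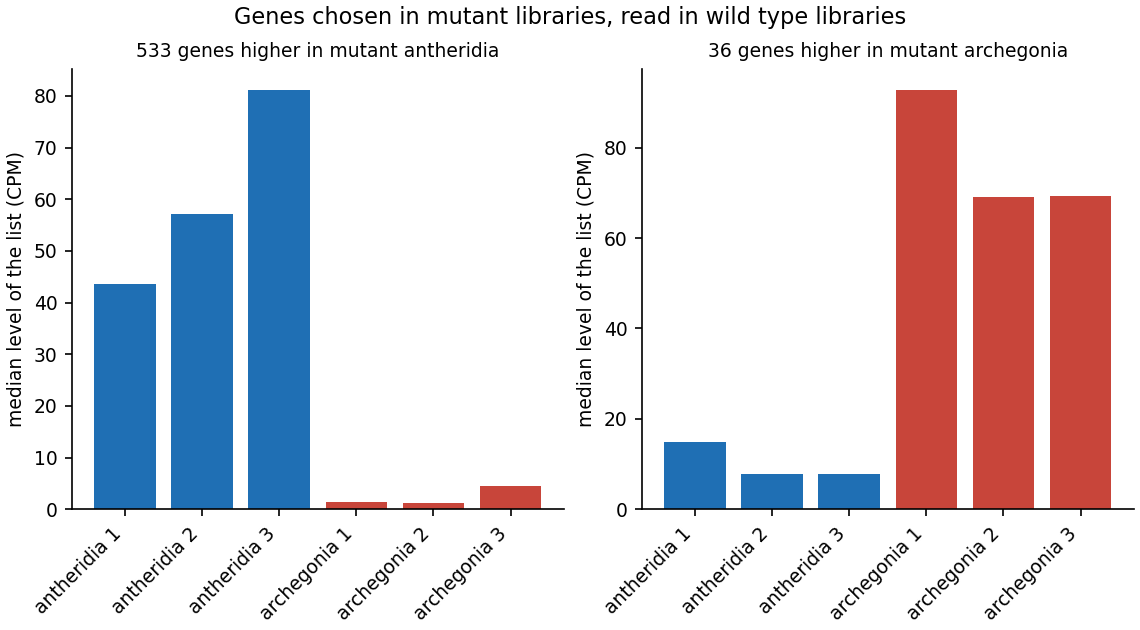
Median CPM (y, from 0, with a separate scale in each panel) of genes called between the organs of the mutant, read in the 6 wild type libraries (x). The 533 male-list genes lie at 43.6 to 81.1 CPM in antheridia and 1.16 to 4.45 CPM in archegonia, with archegonia 3 highest of these. The 36 female-list genes lie at 69.1 to 92.7 CPM in archegonia and 7.70 to 14.9 CPM in antheridia.

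Called genes were spread over all 27 chromosomes named in the identifiers. The share of tested genes called higher in antheridia ran from 3.29% on chromosome 18 to 8.88% on chromosome 6, where 83 of 935 genes were called, with a median of 5.73% over chromosomes. The share called higher in archegonia ran from 1.29% on chromosome 16 to 2.55% on chromosome 12, with a median of 2.04%. Genes with a scaffold number in the identifier numbered 62 among those tested, of which 4 were called on the male side and 0 on the female side. Of 1200 antheridium genes on numbered chromosomes, 246 (20.5%) had a gene called in the same direction as the next identifier listed on either side. Such a neighbour was found for 8.1% of all 21607 tested genes on numbered chromosomes. Of the 454 archegonium genes 38 (8.37%) had a neighbour called higher in archegonia, against 2.85% of all tested genes. Overlapping genes and near-identical copies cannot be told apart in these counts, and neighbours may share reads.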

How the data were processed

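RNA of 8 pooled organs per library was turned into cDNA by Smart-seq2, a full-length method that does not mark strand and has no molecular identifiers, per the labels' protocols. The authors deposited whole-number read counts per gene. The submitters' processing notes name Trim Galore (0.6.6), cutadapt (2.10), the aligner HISAT2 (2.1.0) and, for the comparisons, DESeq2 (2.11.40.6). Build, annotation and counting settings: not given in the sources. The title of the deposited count matrix does name feature counts and a filter after counting CDS, the coding sequence, without details. The authors' deposited table for this contrast, which has no header, gives log2 fold changes with p-values and adjusted p-values, and its sign was checked against the counts.

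Counts were tested gene by gene with edgeR 4.0.16 in R 4.3.3 on the 6 wild type libraries: TMM scaling, filterByExpr (21669 genes kept), robust non-legacy quasi-likelihood fit, Benjamini-Hochberg adjusted p under 0.05, no minimum fold. Alternatives used DESeq2 1.42.0 and limma 3.58.1. CPM are scaled to TMM-adjusted totals in values of single genes, in organ means and in the leading tested genes of an organ by mean CPM. They are scaled to plain totals in counts of detected genes, leading genes of single libraries and genes without a count. Single values per library were compared by exact permutation. The same test was run on the 6 mutant libraries. Statistics were tested on simulated data.

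Named genes are the 2 per direction with the highest mean CPM in the higher organ among called genes with libraries apart between organs and a log2 difference of at least 3 in size, and the 2 most abundant genes not called. Lists of gene products planned for annotated identifiers were not used. Contrast, rules and lists were chosen with earlier results of these data known.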

Additional observations from a re-analysis of the deposited data

How the results depend on the processing

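Direction was kept in most settings, while counts of calls moved. Against 1658 calls (1204 higher in antheridia, 454 in archegonia), the DESeq2 Wald test gave 3062 (2071 and 991), the legacy edgeR fit 1058 (778 and 280), the fit of all 12 libraries 672 (583 and 89) and the test against a 2-fold change 748 (639 and 109). RLE size factors, both other low-count filters and limma-voom stayed within 1.5 times these counts. The cause was not tested, except that the last setting asks for a larger change and the 12-library fit shares its spread with the mutant. Leaving out single libraries gave 562 to 1958 calls, 471 to 1589 higher in antheridia and 91 to 369 higher in archegonia, and 22 and 32 genes without a count in the other organ became 25 to 108 and 37 to 110, an alternative chosen after seeing the data, as were the counts of non-overlapping genes without single libraries. With the replicate number as a block, edgeR called 1719 genes (1324 and 395), of which 1043 and 331 were shared with the unblocked calls. The numbers were not taken as pairs, since the labels do not tie them to occasions. Deviations of same-numbered libraries from their organ means correlated at 0.075, 0.003 and 0.159. Antheridia 1 and 3 were closest to the archegonia of their own number, and antheridia 2 was closest to archegonia 1 (0.08). Whether libraries of one number share an occasion is thus not known. The difference in detected genes turned, from -1551 to 233 at 10 counts after thinning. Genes without a count in the other organ turned from 22 and 32 to 108 and 38 without archegonia 3. Without archegonia 1 they were 42 and 38. Such counts can only stay or rise when a library is left out. The 32-fold counts of non-overlapping genes turned without antheridia 2, to 343 and 394. None of the 6 named genes changed direction. Precision is limited by 3 libraries per organ. The effect of depth on the calls was not tested.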
